A study of Mus musculus with 6 samples.

Results

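The genes described here are 6 that tie the cell surface to neighbouring cells, to the matrix and to the membrane skeleton: the catenin gene Ctnna1, the cadherin gene Cdh13, the integrin subunit genes Itga1 and Itgb1, the dystroglycan gene Dag1 and the scaffold gene Ahnak. They were measured in proprioceptive neurons, the sensory cells that report on muscle, taken from the dorsal root ganglia of mice. The 6 genes were chosen by name from the authors' deposited list of probe sets enriched in neurons of muscle spindles, and all of their probe sets on that list were taken, which makes 8 of the 626 listed and 8 of the 45101 on the array. The list had been selected on these same samples for a ratio of at least 5-fold and a p-value below 0.08. The higher values in spindle neurons are therefore what chose the genes, and they are given as a description without a test.

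Neurons labelled MS supply muscle spindles and report muscle length, and neurons labelled GTO supply Golgi tendon organs and report muscle tension. Both groups came from one mouse line carrying Egr3::WGA-cherry, PV:Cre and Thy1-lsl-YFP on a mixed C57bl/129sv background, male and female, at postnatal days 7 to 10. The sorter took Cherry+YFP+ cells as MS and Cherry-YFP+ cells as GTO, so PV:Cre drives the YFP of both groups and Egr3::WGA-cherry alone sets them apart. Each group has 3 samples on 1 array each, pooled over several sorts to about 1250 neurons for an MS sample and about 725 for a GTO sample, and the labels call both subsets enriched, not pure. The labels name no deletion and no treatment of the mice in either group. The labels call the samples biological replicates without saying which animals went into a pool, so their spread is that between pools.

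Cells hold on to each other through cadherins, whose inner ends bind catenins, and alpha-catenin hands the pull on to actin. Integrins, each a pair of an alpha and a beta subunit, bind matrix proteins such as collagen and laminin, and dystroglycan binds laminin on the outside and dystrophin or utrophin on the inside. In peripheral nerve these receptors are best known in Schwann cells, where dystroglycan and the beta1 integrins bind the basal lamina, while sensory axons use beta1 integrins to grow on laminin.

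The upstream sequences show what lies at the start of these genes, and they are printed for the 4 with a window in the RefSeq promoter table of build GRCm38.p6, from 250 bases before to 50 after the annotated start. Dag1 and Itga1 are of interest because they diverged within the MS group, Itgb1 because it is the partner subunit of Itga1, and Ahnak because it has the largest ratio on the list. Capitals mark a GC box, GGGCGG, which Sp and KLF factors bind, or an ETS core, CCGGAA, read by the family of Etv1, on either strand. The motifs were picked for the factors Etv1, Runx3 and Egr3, known from proprioceptor and spindle development, beside the common GC box. Each sequence runs 5′ to 3′ along the strand of its gene.
Dag1, chr9:108263909-108264208, - strand: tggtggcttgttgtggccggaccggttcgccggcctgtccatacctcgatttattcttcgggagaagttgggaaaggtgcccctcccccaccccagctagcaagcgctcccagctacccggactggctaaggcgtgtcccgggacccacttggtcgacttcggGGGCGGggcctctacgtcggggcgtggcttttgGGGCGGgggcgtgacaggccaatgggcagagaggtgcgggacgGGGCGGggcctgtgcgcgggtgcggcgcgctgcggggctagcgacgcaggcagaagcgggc
Itga1, chr13:115101915-115102214, - strand: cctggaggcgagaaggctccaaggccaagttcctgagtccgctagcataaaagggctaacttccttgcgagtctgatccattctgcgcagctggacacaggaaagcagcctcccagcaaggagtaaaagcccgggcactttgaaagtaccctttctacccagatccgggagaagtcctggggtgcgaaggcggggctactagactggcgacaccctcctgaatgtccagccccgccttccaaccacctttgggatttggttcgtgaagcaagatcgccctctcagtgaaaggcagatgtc
Itgb1, chr8:128685404-128685703, + strand: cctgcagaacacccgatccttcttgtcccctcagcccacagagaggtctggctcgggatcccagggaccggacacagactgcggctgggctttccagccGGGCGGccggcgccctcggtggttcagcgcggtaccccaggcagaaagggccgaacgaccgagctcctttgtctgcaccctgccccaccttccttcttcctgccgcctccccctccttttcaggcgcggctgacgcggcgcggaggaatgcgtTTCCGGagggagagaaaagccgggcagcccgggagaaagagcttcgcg
Ahnak, chr19:8989034-8989333, + strand: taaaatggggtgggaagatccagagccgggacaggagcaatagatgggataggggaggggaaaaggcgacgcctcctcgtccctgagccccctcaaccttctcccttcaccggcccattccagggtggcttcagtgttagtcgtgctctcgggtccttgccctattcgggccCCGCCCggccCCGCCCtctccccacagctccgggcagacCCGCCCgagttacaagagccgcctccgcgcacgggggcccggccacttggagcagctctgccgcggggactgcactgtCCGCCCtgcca

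The windows of Ahnak and Dag1 hold 4 and 3 GC boxes, that of Itgb1 holds 1, and the Itga1 window holds none of the motifs searched. A GC box occurs in 35.7% of the 32851 promoter windows in the table. The Itgb1 window also holds an ETS core just behind the annotated start, a motif found in 14.9% of all windows. The letters TGTGGT, a Runx core, and GTGGGCG, an Egr core that can share bases with a GC box, were searched on both strands and are in none of these 4 windows, against 16.8% and 7.97% of all windows. The G and C content was 67.3% for Ahnak, 69.7% for Dag1, 67.3% for Itgb1 and 56.7% for Itga1, and the median of all windows was 52.7%. These matches describe the letters alone, since no binding was measured in these samples.

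All values that follow are deposited log2 values, on which bacterial control probe sets read 1.86 to 2.89, and log2 4 serves as the floor of what counts as signal. In all 8 probe sets the lowest MS array stood above the highest GTO array, and in 7 of them when values under log2 4 were set to 4, the exception being Dag1 1423872_a_at. On values without that floor, all MS arrays stood above all GTO arrays for 4.25% of the 45037 probe sets other than controls. They did so for 94.6% of the deposited list, whose selection favours it. The shares with the floor were not taken. The mean MS minus GTO difference lay between 2.91 and 7.15 for the 8 probe sets, with a median of 4.22, against a median of 3.22 for the list and 0.31 for the 16256 probe sets that had log2 4 or more on at least 3 arrays and were tested. On the GTO arrays 5 of the 8 stayed under log2 4 throughout, and 207 of the 626 on the list did. The differences of these 5 are measured against readings under that floor. Those of Dag1 1456131_x_at, at 3.32 to 3.50, lay above the range of the controls. With values under log2 4 set to 4, the differences ran from 1.48 for Itga1 to 5.67 for the first Ctnna1 probe set, with a median of 3.83. Each value comes from a pool of sorted cells, so that fewer cells with a transcript and less of it in each cell cannot be told apart.

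**Figure D1:**
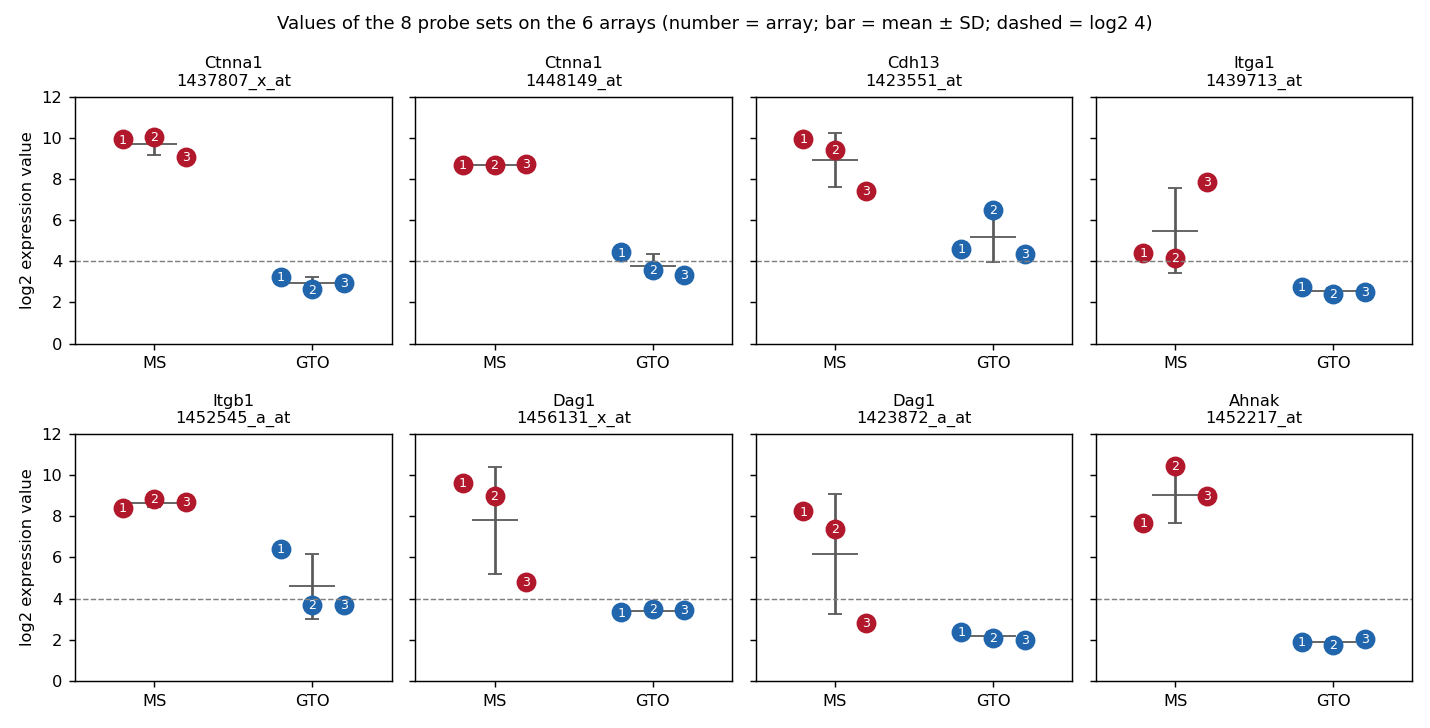
Log2 expression value (vertical axis) of each of the 8 probe sets on the 3 MS arrays (red, left) and the 3 GTO arrays (blue, right); the number in a point is the array, the bars are mean ± SD and the dashed line is log2 4. MS and GTO points are separate in all panels, with the narrowest gap in the second Dag1 panel, where MS array 3 reads 2.83.

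Signal itself differed between the arrays, which bears on every value here. The upper quartile of all probe sets was 6.83 ± 0.04 on the MS arrays and 6.14 ± 0.56 on the GTO arrays (SD, n = 3 each), a difference that a two-sided exact permutation test put at p = 0.1, the smallest it can give with 3 against 3. GTO arrays 2 and 3 were the lowest, at 6.20 and 5.55. The difference of 0.69 was 0.40 without GTO array 3 and 0.96 without GTO array 1. Array signal and the number of neurons per sample follow the groups and cannot be told apart from the neuron class.

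Ctnna1 encodes alpha-catenin, the link between the cadherin and catenin complex and actin. Its probe set 1437807_x_at read 9.92, 10.04 and 9.06 on MS arrays 1, 2 and 3, against 3.23, 2.63 and 2.94 on GTO arrays 1, 2 and 3. The groups lay far apart, with 5.83 log2 units between the lowest MS and the highest GTO array, and all GTO readings were near the controls. Measured against the floor, the ratio was at least 51.1-fold (MS 9.67 ± 0.53, GTO 2.93 ± 0.30, SD, n = 3 each). In the authors' deposited table its fold is 107, the third largest of 626.

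The second Ctnna1 probe set, 1448149_at, read 8.67, 8.66 and 8.71 on the MS arrays, against 4.43, 3.59 and 3.35 on GTO arrays 1, 2 and 3. The 3 MS values spanned 0.05 log2 units, and 99.4% of the tested probe sets had a wider span. Here GTO array 1 was above the floor while the other two were not, and the difference of 4.89 ± 0.33 (SE, n = 3 each) was smaller than that of the first probe set. The suffix _x_at marks a probe set some of whose probes can also match other transcripts, which applies to the first Ctnna1 probe set and to 1 of Dag1, and the part this plays was not tested. Both listed Ctnna1 probe sets separated the groups, with different sizes of difference for one gene. Probe sets of the 6 genes that are not on the deposited list cannot be named here, and whether they separate the groups is unknown.

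The fit over all 16256 tested probe sets put 1 of the members past its threshold, an adjusted p of 0.05 in limma, and this was 1437807_x_at. Such calls made up 0.0185% of the tested probe sets, 3 in all, and since this contrast chose the members nothing is read from the count. No single array could be dropped without ending the call.

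Cdh13, or T-cadherin, is unlike classical cadherins in having no inner part, being held in the membrane by a lipid anchor, and so it does not bind catenins. It read 9.93, 9.39 and 7.44 on MS arrays 1, 2 and 3, against 4.61, 6.51 and 4.36 on GTO arrays 1, 2 and 3. Cdh13 was the only member above the floor on all 3 GTO arrays. MS array 3 was low and GTO array 2 high, which left 0.92 log2 units between these nearest arrays of the groups. The difference was 3.76 ± 1.02 (SE, n = 3 each), with group means of 8.92 ± 1.31 in MS and 5.16 ± 1.18 in GTO (SD).

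Itgb1 encodes the beta1 subunit, shared by many integrins, among them receptors for laminin, collagen and fibronectin. Probe set 1452545_a_at read 8.41, 8.84 and 8.71 on MS arrays 1, 2 and 3, against 6.43, 3.69 and 3.71 on GTO arrays 1, 2 and 3. The MS arrays agree within 0.42 log2 units, whereas GTO array 1 stood 2.73 above the mean of the other two. Of the tested probe sets, 91.1% had a lower value of this measure. GTO array 1 also had the highest upper quartile of the GTO arrays, at 6.67. The MS minus GTO difference was 4.05 ± 0.92 (SE, n = 3 each). It was 4.96 without GTO array 1, and 2.23, under 5-fold, with GTO array 1 as the sole GTO array.

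Itga1 encodes the alpha1 subunit, which pairs with beta1 to form a collagen and laminin receptor. It read 4.40, 4.17 and 7.86 on MS arrays 1, 2 and 3, against 2.74, 2.43 and 2.53 on GTO arrays 1, 2 and 3. MS arrays 1 and 2 were only just above the floor, and MS array 3 alone was high, by 3.58 over the mean of the other two. The ratio against the floor was at least 2.79-fold (MS 5.48 ± 2.07, GTO 2.57 ± 0.16, SD, n = 3 each). Without MS array 3 the difference of 2.91 became 1.72, which is under 5-fold, and the bound became 1.22-fold. It was 4.38-fold without MS array 2. Over the MS arrays the partner subunits had unlike patterns, Itgb1 being even and Itga1 uneven, while on the GTO arrays Itga1 lay within the range of the controls and its pattern there cannot be read.

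Dag1 encodes dystroglycan, which is cut into an outer alpha part that binds laminin and a beta part that crosses the membrane. Probe set 1456131_x_at read 9.61, 8.98 and 4.83 on MS arrays 1, 2 and 3, against 3.32, 3.50 and 3.43 on GTO arrays 1, 2 and 3. Probe set 1423872_a_at read 8.24, 7.39 and 2.83 on the MS arrays, against 2.40, 2.09 and 2.00 on the GTO arrays. Both showed the same picture: high on MS arrays 1 and 2, under log2 4 on every GTO array, and low on MS array 3.

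Relative to the mean of MS arrays 1 and 2, MS array 3 was lower, with a log2 deviation of -4.47 for the first Dag1 probe set. For the second, whose reading of 2.83 on MS array 3 is within the range of the controls, the deviation measured to the floor was -3.81, and the true one may be larger. For 1456131_x_at 0.640% of the tested probe sets had a lower value of this measure, while for Itga1 99.2% had a lower one. The ratio against the floor was at least 14.0-fold for 1456131_x_at (MS 7.81 ± 2.60, GTO 3.42 ± 0.09, SD, n = 3 each). For 1423872_a_at it was 4.44-fold (MS 6.15 ± 2.91, GTO 2.16 ± 0.21, SD, n = 3 each). The MS mean of this second probe set includes the control-level reading on MS array 3, so its ratio is not a strict lower bound. With values under log2 4 set to 4, its log2 difference was 2.54. Both ratios depend on the MS arrays: without arrays 1, 2 and 3 in turn they were 7.48-fold, 9.31-fold and 39.2-fold for the first probe set and 2.16-fold, 2.89-fold and 14.1-fold for the second. The second probe set was the 1 of 8 left out of the fit by the filter of log2 4 on at least 3 arrays, since MS array 3 is under that level.

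**Figure D2:**
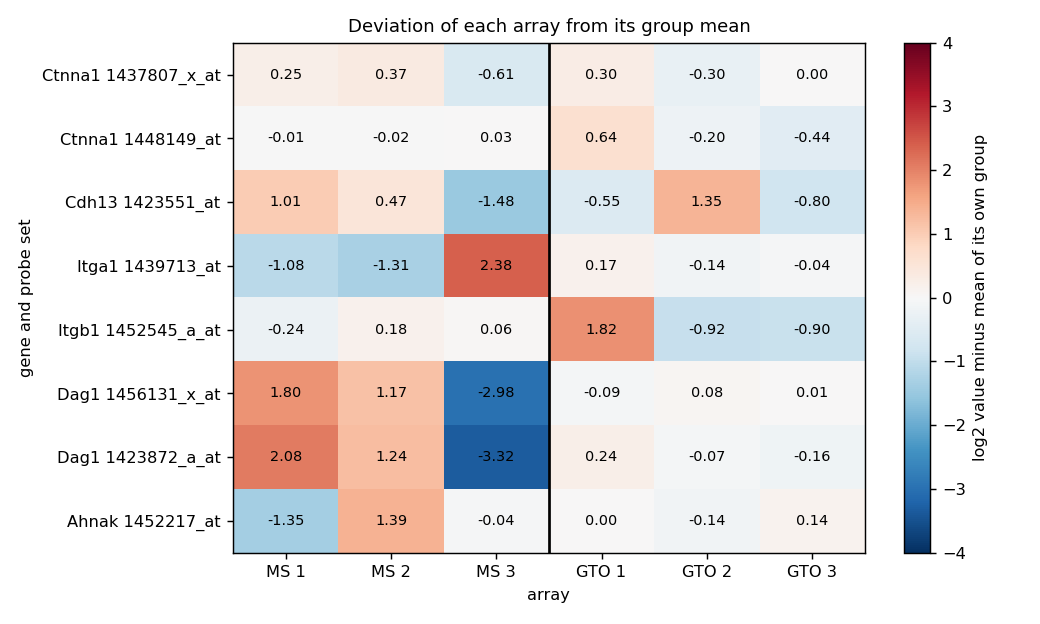
Deviation of each array (columns) from the mean of its own group in log2 units, for the 8 probe sets (rows). On MS array 3 both Dag1 probe sets are negative, at -2.98 and -3.32, and Itga1 is positive, at 2.38, while on GTO array 1 the largest deviation is that of Itgb1, at 1.82. The reading of the second Dag1 probe set on MS array 3 is within the range of the controls.

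Ahnak encodes a very large scaffold protein under the plasma membrane that binds S100A10 with annexin A2, and the beta subunit of calcium channels. It read 7.69, 10.44 and 9.01 on MS arrays 1, 2 and 3, against 1.90, 1.76 and 2.04 on GTO arrays 1, 2 and 3. All GTO readings were at or below the level of the bacterial controls, and the MS readings spanned 2.75 log2 units. The ratio against the floor was at least 33.1-fold, and it was at least 52.9-fold without MS array 1 and at least 20.4-fold without MS array 2. The fold of 142 in the authors' deposited table, the largest of 626, divides by values at background.

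**Figure D3:**
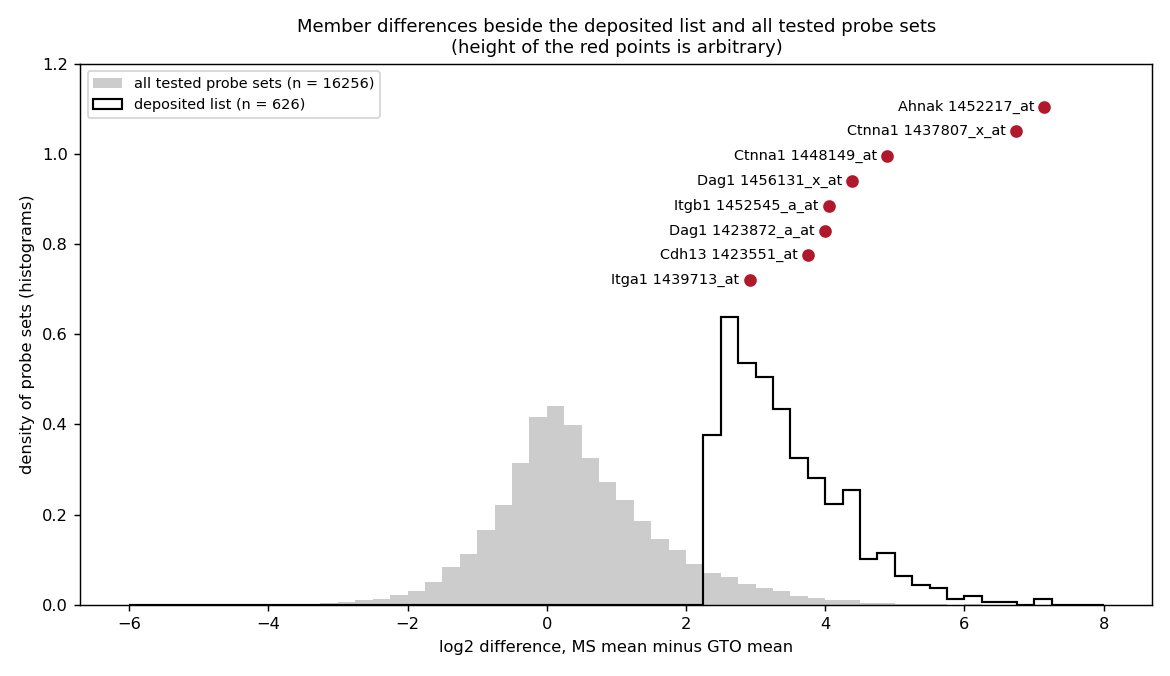
MS mean minus GTO mean in log2 units (horizontal axis) for all 16256 tested probe sets (grey), the 626 of the deposited list (black outline) and the 8 members (red, at arbitrary heights); the vertical axis is density of the histograms. The members run from 2.91 for Itga1 to 7.15 for Ahnak, the list having a median of 3.22; with values under log2 4 set to 4, Itga1 is at 1.48 and Ahnak at 5.05.

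Ordered by the fold in the authors' deposited table, the 8 probe sets stood between numbers 1 and 411 of 626. For 5 of the 8 this fold divides by GTO readings under log2 4, so their places depend on values under the floor. Behind Ahnak and the first Ctnna1 probe set, the second Ctnna1 probe set was number 37 with a fold of 29.7. The Dag1 probe sets were numbers 90 and 145 with 20.9 and 15.9, Itgb1 number 136 with 16.5, Cdh13 number 183 with 13.5 and Itga1 number 411 with 7.53. By the p-value of the same table Dag1 1423872_a_at and Itga1 stood nearest the limit of 0.08, at 0.0769 and 0.0718. The first probe set beyond that limit among those of at least 5-fold stood at 0.0801 with a ratio of 30.2, and its gene cannot be named here.

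How much the differences depend on single arrays varied between the members. The rule of the list, which 1.39% of the 45037 probe sets met on all 6 arrays in favour of MS, was met by both Ctnna1 probe sets and by Ahnak under every alternative run. Itgb1 and Cdh13 met it under all alternatives with more than 1 GTO array. The share of all probe sets that met the rule in the alternatives was not taken. With GTO array 1 as the sole GTO array, a setting chosen after the data had been seen in which the p-value rests on the MS spread, the log2 difference of Cdh13 was 4.31 and that of Itgb1 2.23. Dag1 and Itga1 no longer met its p-value limit when any single GTO array was left out, although their differences hardly moved. They were 4.34 to 4.43 for the first Dag1 probe set, 3.91 to 4.11 for the second and 2.84 to 3.00 for Itga1, all over 5-fold. The MS arrays moved them more: without MS arrays 1, 2 and 3 in turn the first Dag1 probe set differed by 3.49, 3.80 and 5.88, the second by 2.95, 3.37 and 5.65, and Itga1 by 3.45, 3.57 and 1.72. All log2 differences kept their sign in every alternative.

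**Figure D4:**
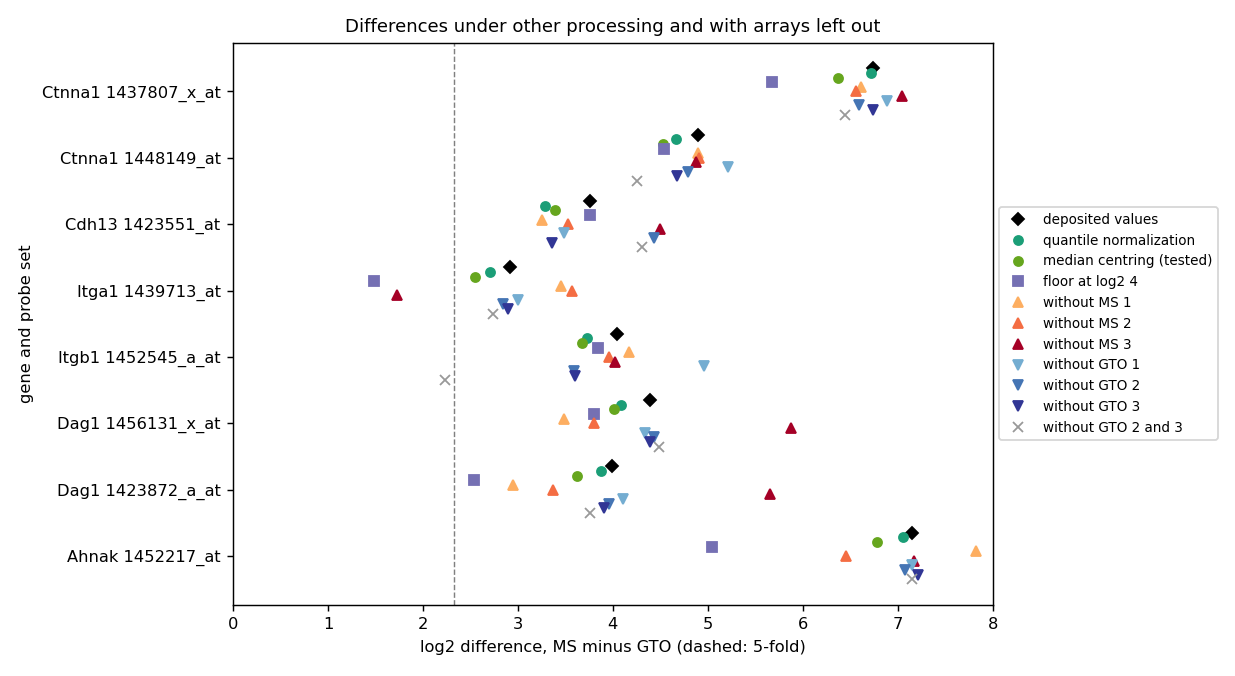
MS minus GTO log2 difference (horizontal axis) of the 8 probe sets (rows) for the deposited values (black diamond), after re-scaling, with values under log2 4 raised to 4, and with arrays left out; the dashed line is 5-fold. Itga1 falls to 1.72 without MS array 3 and to 1.48 with the floor, while the first Dag1 probe set reaches 5.88 without MS array 3.

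Other genes of the same structures were looked up on the deposited list, the only source here that pairs probe sets with genes. Of 172 genes reported here from 7 lists of adhesion genes, 9 stood on it, the 6 members and 3 more. The 6 members were chosen from the list, so the count is a description. The rule of the list was met by 1.39% of the 45037 probe sets, a share of probe sets and not of genes. Only probe sets higher in MS were listed, and absence from it says nothing of a gene's level. Of 39 cadherins, protocadherins and their relatives the list held Cdh13, and of 26 integrin subunits Itga1 and Itgb1. None of 22 linkers of integrins to actin, such as talins and kindlins, and none of 31 matrix ligands was on it.

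Of 17 catenins and partners of the adherens junction, 3 were listed: Ctnna1, Ctnnb1 and Nectin3. Ctnnb1 encodes beta-catenin, which joins alpha-catenin to cadherins and also acts in Wnt signalling. It read 10.52, 9.78 and 10.75 on MS arrays 1, 2 and 3, against 9.43, 4.59 and 4.56 on GTO arrays 1, 2 and 3. As with Itgb1, GTO array 1 stood well above the other two GTO arrays, close to the MS range. Nectin3, an immunoglobulin-like adhesion protein of the same junctions, read 10.77, 8.82 and 7.77 on the MS arrays, against 7.03, 3.64 and 5.37 on the GTO arrays.

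Of the 27 genes reported here from the dystroglycan complex and its glycosylation, Dag1 was listed. Of 12 genes in the Ahnak group, Ahnak and the calcium channel beta subunit gene Cacnb3 were listed, and Cacnb3 read 7.20, 9.35 and 7.15 on the MS arrays, against 6.06, 4.83 and 3.77 on the GTO arrays. None of Ctnnb1, Nectin3 and Cacnb3 passed the adjusted threshold in limma.

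Some members are also made by glia, fibroblasts and pericytes, so markers of those cells were looked up in the same way. Of 10 Schwann cell markers Mbp and Cnp were listed, of 8 fibroblast and matrix markers Sparc, and of 5 markers of pericytes and smooth muscle Itga1 itself. Mbp, a myelin protein, read 6.03, 7.18 and 5.98 on the MS arrays, against 3.32, 2.49 and 2.65 on the GTO arrays. Sparc, a secreted matrix protein, read 7.23, 9.32 and 9.13 on the MS arrays, against 3.20, 4.23 and 3.40 on the GTO arrays. Cnp, an enzyme of myelinating cells, read 6.37, 6.20 and 5.51 on the MS arrays, against 2.14, 5.28 and 3.01 on the GTO arrays.

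Having been listed, these markers are higher on the MS arrays like the members, and their part in the members' values was not tested. In limma the adjusted p was 0.127 for Sparc, 0.133 for Mbp and 0.550 for Cnp. Among the tested members, Ctnna1 and Ahnak had lower values than Sparc and Mbp, while Itgb1, Cdh13, Dag1 and Itga1 had higher ones. The same contrast chose markers and members, so these values are a description. No marker of satellite glia, endothelium, macrophages or skeletal muscle was on the list, nor any of 5 general sensory neuron markers. Of 5 proprioceptor markers Whrn was listed, which encodes whirlin and read 3.15, 5.11 and 6.61 on the MS arrays, against 2.31, 2.35 and 2.28 on the GTO arrays. The levels of the other markers cannot be given here, and with them the labelled cell type could not be checked further.

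The listed genes whose values ran most like those of a member over the 6 arrays were found by Pearson's correlation, as a description, since every listed gene was chosen for the same contrast and the arrays form 2 separate groups. For Dag1 1456131_x_at they were Kcnip2, a potassium channel accessory protein (r = 0.999), and Spata2 (r = 0.998). Kcnip2 read 7.15, 6.98 and 3.66 on MS arrays 1, 2 and 3, against 2.63, 2.68 and 2.70 on the GTO arrays. It too was low on MS array 3, where its reading was under log2 4. For Dag1 1423872_a_at they were Trmt10a, a transfer RNA methyltransferase (r = 0.998), and again Spata2 (r = 0.998).

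For Itga1 the nearest were Mdm2, a ubiquitin ligase (r = 0.978), and the kinase gene Prkd1 (r = 0.976), both highest on MS array 3. For Itgb1 they were the phosphatase gene Ptpn2 (r = 0.995) and the transcription factor gene Tcf4 (r = 0.993), both raised on GTO array 1 like Itgb1. For Cdh13 they were Ptpdc1 (r = 0.999) and Klhl20, a ubiquitin ligase adaptor (r = 0.996), both highest among the GTO arrays on GTO array 2. For Ahnak they were Hs6st2, a heparan sulfate sulfotransferase (r = 0.997), and the kinase gene Pak2 (r = 0.997). For Ctnna1 they were Fiz1 and Pcmtd1 with the first probe set (r = 0.999 for both) and St7l and the RNA helicase gene Ddx46 with the second (r = 0.995 for both). The median correlation over the other listed probe sets ranged from 0.619 for Itga1 to 0.877 for Ctnna1 1448149_at.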

How the data were processed

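RNA from 3 MS and 3 GTO samples was measured on 1 array each. The deposited log2 values come from GCRMA and Partek, per the submitters' processing notes, with no version given. The authors also deposited a list with an unadjusted p-value and the linear ratio of MS over GTO per probe set, limited to at least 5-fold and p below 0.08 per the file headers. The deposited F scores were not used. Genome build and array annotation: not given in the sources used here, so the only coordinates printed are those of the RefSeq promoter windows, in GRCm38.p6. The listed folds were recovered from the log2 values with a largest relative deviation of 2.1e-05, and the rule of the list, with the equal-variance statistic, gave the same 626 probe sets.

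After 64 control probe sets were left out, 16256 probe sets with log2 4 or more on at least 3 arrays were fitted with limma 3.58.1 in R 4.3.3 (lmFit, eBayes, two-sided, no covariate) with Benjamini-Hochberg adjustment over all of them. The fit was tested on simulated normal values with the same spread in both groups. This does not show how it behaves on arrays that differ in signal between the groups. A ratio with all GTO arrays under log2 4 is a bound, the MS mean against that floor. Symbols were updated through Entrez identifiers with a RefSeq table of GRCm38.p6, in which 591 listed probe sets have 1 symbol.

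The 6 genes and the adhesion and marker lists were chosen with earlier results of these data known. Named genes were all members, the 2 listed probe sets most correlated with each, and the genes of the lists that stood on the deposited list, except for what is not reported here. The alternatives were quantile normalization, median centring over all or over tested probe sets, no filter and a filter at log2 6, a floor at log2 4, the replicate number as a block, the ordinary statistic, and leaving out arrays. With 3 arrays a group, their number limits the precision.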

Additional observations from a re-analysis of the deposited data

How the results depend on the processing

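The count of member probe sets past the adjusted threshold in limma, 1, was 2 with the filter at log2 6, both of Ctnna1. It was 0 with the floor at log2 4, with the ordinary statistic, under centring on the tested probe sets, without GTO arrays 2 and 3, and whenever 1 array was left out (0 to 0). The lowest adjusted p of a member was 0.0254 to 0.286 over those of these alternatives with more than 1 GTO array. Where their count was 0, 6 to 7 members had an unadjusted p under 0.05 in limma. In the main fit 7 did, beside 1053 of the 16256 tested probe sets higher in MS and 242 lower. The share over all tested probe sets was not taken for the alternatives. This contrast chose the members, so nothing is read from these counts. The count that met the rule of the list, 8, was 7 under quantile normalization, where Itga1 no longer met it. It was 6 with the floor at log2 4 and under centring on the tested probe sets, where Dag1 1423872_a_at also failed. The filter at log2 6, which leaves only 5 probe sets, gave 5, and leaving out 1 array gave 5 to 7. The count with no overlap, 8, was 5 under that filter, all of those it leaves, and 7 with the floor at log2 4. The shares of all probe sets that met the rule or had no overlap were not taken for the alternatives. The median log2 difference of the members was 3.83 to 5.27 with 1 array left out. The 3 further adhesion genes that met the rule became 0 to 3 with 1 array left out and 0 without GTO arrays 2 and 3.

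Whether same-numbered arrays pair could not be settled with 3 arrays a group. The correlations between deviations of same-numbered arrays from the group means were -0.06, 0.10 and 0.11 for numbers 1, 2 and 3. Between arrays of different number they ran from -0.17 to 0.09. With the replicate block 0 members passed the adjusted threshold (limma, adjusted p of 0.418 or more, with 7 under 0.05 before adjustment). The share of all tested probe sets under 0.05 in this setting was not taken. Under the block 5 members met the rule of the list, and 1 of the further adhesion genes did. The share of all probe sets that met it under the block was not taken. The median difference of all tested probe sets, 0.31, shifted by -0.29 under quantile normalization, by 0.11 under centring on all probe sets and by -0.37 under centring on the tested ones, and all 8 members stayed higher in MS. Except for the smaller sets left by the filter, the cause of these changes was not tested. Probe sets at the level of the controls limit how large a ratio can be measured.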
